A study of Mus musculus with 44 samples.

Results

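The genes described here encode the RNA-binding proteins that choose splice sites and package nuclear transcripts: the heterogeneous nuclear ribonucleoproteins (gene symbols that start with *Hnrnp*), the serine/arginine-rich splicing factors (*Srsf* followed by a number) and the proteins named for an RNA-binding motif (*Rbm* followed by a number). The deposited table lists 68 such genes. Of these, 65 had at least 1 CPM (the reads of a gene scaled to the reads on all listed genes of its library) in at least 5 of the 44 libraries, 20 of them *Hnrnp*, 11 *Srsf* and 34 *Rbm* genes, among 11963 genes that passed the same filter and 14699 genes listed. *Rbm20*, *Rbm44* and *Rbm46* did not pass, with highest values of 0.752, 1.42 and 0.782 CPM.

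Each library was made from the CD45+CD11c+MHCIIhigh cells of the draining inguinal lymph nodes of 1 female mouse on the C57BL/6 background, sorted 24 h after a subcutaneous injection at zeitgeber time (ZT) 3, 9, 15 or 21. ZT3 and ZT9 lie in the light phase and ZT15 and ZT21 in the dark phase. Control mice received B16-F10-OVA cells, a mouse melanoma line that expresses ovalbumin (WT, 5 mice per timepoint, 20 in all), or PBS as a sham (PBS, 3 per timepoint, 12 in all). *Clec9a-cre:Bmal1flox* mice received B16-F10-OVA cells (*Bmal1ΔcDC*, 3 per timepoint, 12 in all). In these mice Cre is driven by *Clec9a*, a gene of conventional dendritic cells and their precursors, and removes the clock gene *Arntl* (also known as *Bmal1*) from those cells, whereas other cells of the mouse keep it. *Arntl* itself ranged from 8.67 to 24.4 CPM (median 14.8) in WT, from 11.5 to 37.99 CPM (median 18.001) in *Bmal1ΔcDC* and from 12.3 to 34.8 CPM (median 21.9) in PBS. It was therefore not lower in the libraries labelled *Bmal1ΔcDC* than in WT, although its median was below that of PBS. A count over the whole gene does not show whether the floxed exon is present. WT and PBS mice shared the control genotype, and WT and *Bmal1ΔcDC* mice shared the tumour cells.

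Nuclear transcripts are bound by hnRNP proteins as they are made. These proteins often keep splice sites from being used, and several of them also act on the stability of the mature mRNA. SR proteins bind exons and recruit the spliceosome to nearby splice sites, and their activity is set by phosphorylation of their serine/arginine repeats by the CLK and SRPK kinases. Many RBM proteins are parts of the spliceosome or of the exon junction complex, and RBM3 belongs, with CIRBP, to the proteins whose mRNA is induced by mild cold and lowered by warmth. In immune cells these factors set the isoforms of surface molecules such as CD45 and the life span of cytokine mRNAs.

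The promoters of 57 of the 65 genes were in the RefSeq promoter table (GRCm38.p6), with 74 start sites in all. The 250 bases before the start site are shown for 3 of the 8 genes that passed the test of time in WT mice below, because these windows overlapped no exon of a protein-coding gene in GENCODE vM21. The *Srsf5* window shares 148 bases with an exon of *Gm20337*, a long noncoding RNA that runs the other way. The windows are chr13:58128557-58128806 (minus strand) for *Hnrnpa0*, chr11:51606882-51607131 (minus strand) for *Hnrnpab* and chr12:80945249-80945498 (plus strand) for *Srsf5*. Each is written 5′ to 3′ on the strand of the gene. Capitals mark the matches to a CCAAT box (CCAAT) and to the core of an ETS site (CCGGAAG) on either strand.
Hnrnpa0: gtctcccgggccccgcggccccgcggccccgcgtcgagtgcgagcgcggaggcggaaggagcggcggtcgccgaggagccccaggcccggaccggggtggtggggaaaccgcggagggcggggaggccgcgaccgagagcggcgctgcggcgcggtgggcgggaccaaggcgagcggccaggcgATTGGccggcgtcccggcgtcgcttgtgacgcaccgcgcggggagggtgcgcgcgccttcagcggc
Hnrnpab: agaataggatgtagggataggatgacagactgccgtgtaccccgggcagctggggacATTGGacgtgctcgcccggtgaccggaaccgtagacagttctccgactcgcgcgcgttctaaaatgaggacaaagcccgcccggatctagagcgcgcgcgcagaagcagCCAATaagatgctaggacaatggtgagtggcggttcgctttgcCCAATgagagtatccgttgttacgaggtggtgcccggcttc
Srsf5: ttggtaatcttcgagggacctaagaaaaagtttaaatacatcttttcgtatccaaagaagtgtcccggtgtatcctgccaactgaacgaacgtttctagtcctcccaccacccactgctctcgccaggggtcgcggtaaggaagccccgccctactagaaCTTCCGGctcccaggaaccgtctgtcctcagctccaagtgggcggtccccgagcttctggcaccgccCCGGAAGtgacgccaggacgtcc
The *Hnrnpa0* window holds 1 CCAAT box, the *Hnrnpab* window 3 CCAAT boxes and the *Srsf5* window 2 ETS cores. An E-box (CACGTG), the sequence to which the BMAL1–CLOCK dimer binds, is in none of the windows of the 7 of these 8 genes that the table holds (*Rbm3* had no entry). Over all 74 member windows, 6 (8.11%) hold an E-box, against 6.02% of all 32851 windows in the table, and the genes are *Hnrnpa3*, *Hnrnpd*, *Hnrnpf*, *Rbm15b*, *Rbm19* and *Rbm43*. A pair of inverted heat shock units (GAANNTTC) is in 5 member windows (6.76%), against 6.69% of all windows. A CRE (TGACGTCA) is in 0 member windows, against 1.55% of all. The CCAAT box is in 33 member windows (44.6%), against 33.8% of all, and the ETS core in 14 (18.9%), against 6.91% of all. The GC content of the windows had a median of 61.2% in members and 52.4% in all windows, and these shares were not compared at a matched GC content. The match of a few letters is a description of the window and not a site that was shown to be bound.

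Reads on genes numbered 20088012 to 28962671 in WT, 29406729 to 55799162 in *Bmal1ΔcDC* and 28003328 to 49590054 in PBS libraries. The WT libraries were the shallower ones, so that depth and group move together and cannot be told apart. Markers of the sorted cells were high in sum in every library (*Flt3*, *Zbtb46*, *Itgax*, *H2-Ab1*, *Ccr7* and *Fscn1*, 11391 to 16510.5 CPM in WT, 13234 to 15877 in *Bmal1ΔcDC* and 10395 to 15484 in PBS). Most of the sum came from *Ccr7*, *Fscn1* and *H2-Ab1* (means over all libraries of 5397, 5089 and 2650 CPM). *Itgax*, the gene of CD11c, had a mean of 47.4 CPM, below that of T cell genes such as *Cd3e* (78.5) and *Il7r* (186). The T cell list (15 of 16 genes listed) summed to 659 to 1100.1 CPM in WT, 781 to 1552 in *Bmal1ΔcDC* and 868 to 1668 in PBS, and none of its listed genes was at 0 in WT. The NK cell list (6 of 6 genes listed) summed to 59.5 to 103 CPM, 87.3 to 247 and 142 to 686 in the same order, with *Ncr1* and *Klrb1c* at 0 in some WT libraries. The B cell list (7 of 8 genes listed) summed to 33.2 to 65.9 CPM, 35.9 to 145 and 53.3 to 96.6 in the same order. Immediate early genes that rise when tissue is dissociated summed to 2970.3 to 5598 CPM in WT, 5105 to 8899.9 in *Bmal1ΔcDC* and 6274 to 10056 in PBS, and cell cycle genes to 166 to 218, 237 to 338 and 247 to 339.98 CPM. These lists move with the groups, and their part in the group differences below was not tested. Melanoma genes were near 0 (at most 14.3 CPM in sum, 5 of 6 genes listed).

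Members of all 3 families were expressed in the sorted cells. Per kilobase of transcript, *Hnrnpf* (279 CPM per kb over the 44 libraries) and *Hnrnpk* (214) were the highest of the hnRNP genes. *Hnrnpf* encodes a protein that binds runs of G, and *Hnrnpk* one that binds runs of C. *Srsf5* (191 CPM per kb) and *Srsf3* (129.7) led the SR genes, and *Rbm42* (150.4) and *Rbm3* (91.8) the RBM genes. At the other end of this scale stood *Rbm11* (0.329 CPM per kb), *Srsf12* (0.155) and *Rbm24* (0.102), which were listed at 0 in some libraries of at least 2 groups. In 17 of the 65 genes more than 50% of the libraries held a fraction of a read, which whole read counts would not give, and in 42 genes fewer than 5% did. *Hnrnpa1*, *Hnrnph3*, *Rbm12*, *Rbm18* and *Rbm48* held fractions in 100% of libraries, *Hnrnpk*, *Hnrnpa3*, *Rbm4b*, *Rbm12b1* and *Rbm12b2* in 97.7%, *Rbm4* in 95.5%, *Rbm3* and *Srsf4* in 93.2%, *Hnrnpf* in 75%, *Rbm10* in 72.7%, *Hnrnpab* in 61.4% and *Rbm14* in 56.8%. The values of these genes may include reads shared with other genes.

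**Figure D1:**
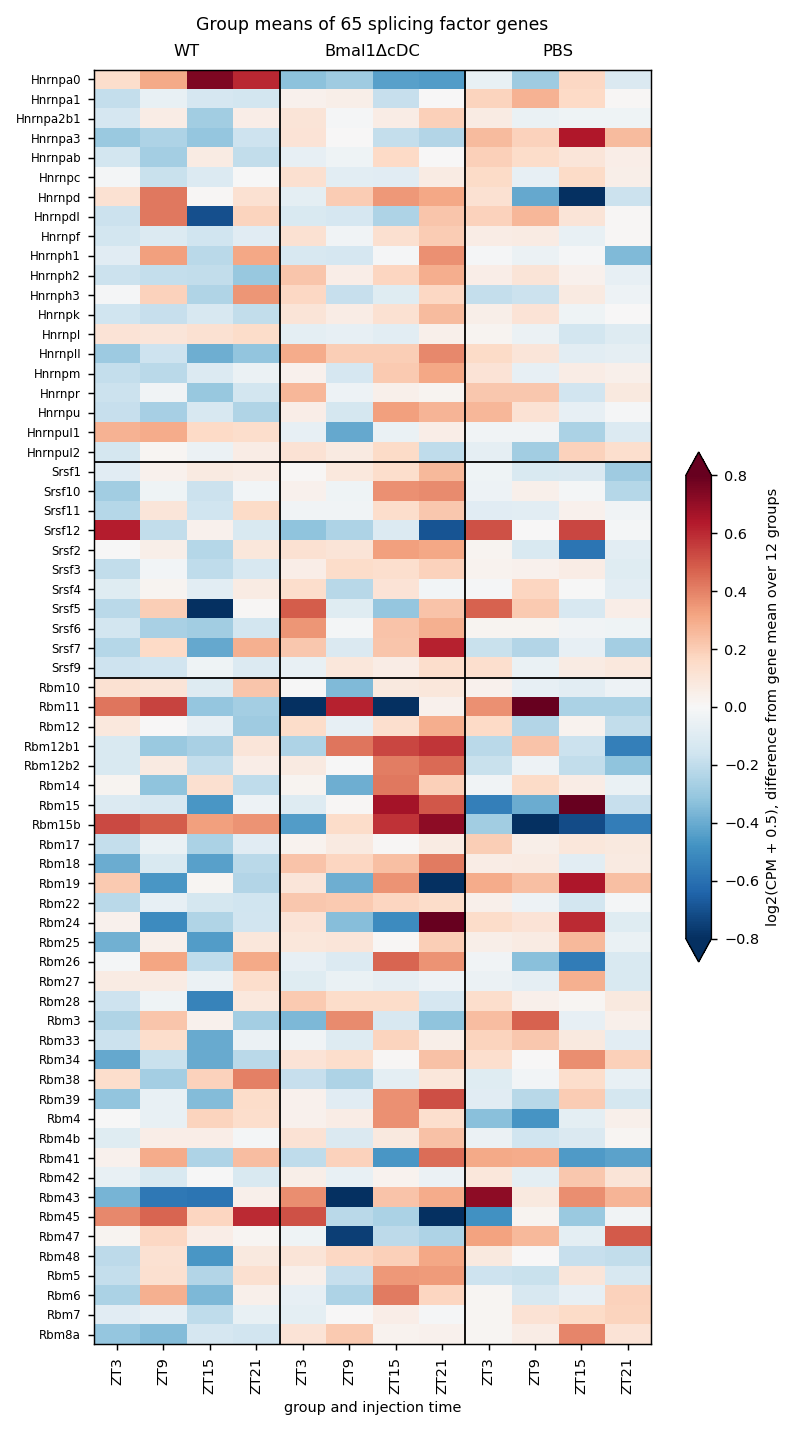
Mean log2(CPM + 0.5) of each of the 65 genes (rows, by family) in the 12 groups of genotype, treatment and injection time (columns), as the difference from the gene's mean over the groups, with red for higher and blue for lower. *Hnrnpa0* is highest in WT at ZT15 (mean 29.9 CPM) and *Srsf5* is lowest in WT at ZT15 (mean 175 CPM).

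Whether the levels differed between the 4 injection times was tested first in WT mice. Of the 65 genes, 8 differed at an adjusted p under 0.05 (limma, F test over the 4 timepoints, adjusted over all genes tested), which is 12.3% of the members, against 5.28% of all genes. At an unadjusted p under 0.05 there were 20 (30.8%), against 23.1% of all genes. The 8 genes were 4 hnRNP genes, 1 SR gene and 3 RBM genes. ZT15 had the lowest mean in 5 of them (*Srsf5*, *Hnrnpdl*, *Hnrnph3*, *Rbm25*, *Rbm48*) and the highest in *Hnrnpa0* and *Hnrnpab*, whereas *Rbm3* was highest at ZT9. In the same mice the immediate early genes that rise with dissociation summed to 4625 ± 691 CPM at ZT3, 3423 ± 477 at ZT9, 5075 ± 744 at ZT15 and 3440.2 ± 584 at ZT21 (SD, n = 5), high where these 5 genes were low, and their part in the differences between timepoints was not tested. The distance between the highest and the lowest timepoint mean had a median of 0.32 on the log2 scale over members and of 0.39 over all genes.

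*Hnrnpa0* encodes an hnRNP that binds AU-rich elements of inflammatory mRNAs. In WT mice it had 16.1, 17.5, 18.7, 22.2 and 23.5 CPM at ZT3, 20.2, 20.8, 21.4, 21.7 and 25.5 CPM at ZT9, 27.3, 28.9, 30.3, 30.4 and 32.3 CPM at ZT15 and 22.3, 27.8, 28.4, 28.4 and 28.6 CPM at ZT21. Each of the 5 mice at ZT15 was above each of the 10 mice at ZT3 and ZT9, and 4 of the 5 mice at ZT21 were as well. The timepoint means spanned 0.61 on the log2 scale (limma, adjusted p = 0.0102). In *Bmal1ΔcDC* mice the values were 8.73, 15.8 and 19.5 CPM at ZT3, 12.9, 13.7 and 16.7 at ZT9, 11.8, 12.2 and 14.8 at ZT15 and 9.96, 13.7 and 15.4 at ZT21, with overlap between all timepoints. In PBS mice they were 12.4, 15.9 and 24.3 CPM at ZT3, 12.9, 14.9 and 15.3 at ZT9, 15.2, 18.4 and 27.6 at ZT15 and 12.1, 16.1 and 21.9 at ZT21. The test of time gave a p of 0.921 in *Bmal1ΔcDC* and of 0.530 in PBS (limma, before adjustment).

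*Hnrnpab*, an A/B-type hnRNP of nuclear mRNA, was likewise highest at ZT15 in WT mice. It had 269.9, 307, 319, 332 and 340.2 CPM at ZT15, against 230.2, 242, 244, 253 and 267 CPM at ZT9. Every mouse at ZT15 was above every mouse at ZT9, and the mice of ZT3 (269.8 ± 7.04 CPM, mean ± SD, n = 5) and ZT21 (259.8 ± 6.73, n = 5) lay between their means. The span was 0.34 on the log2 scale (limma, adjusted p = 0.0449).

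*Srsf5* encodes an SR protein that promotes exon inclusion, and had the widest span over the timepoints of the 11 SR genes. The WT mice had 199.7, 208, 305, 326 and 335 CPM at ZT3, 324, 339, 360.1, 369 and 399 at ZT9, 123, 129.96, 145, 183 and 294 at ZT15 and 287, 289.97, 305, 326 and 368 at ZT21. All 5 mice at ZT9 were above all 5 at ZT15, 1 mouse at ZT15 reached the range of ZT21, and ZT3 was split between low and high mice. The span was 1.11 (limma, adjusted p = 0.0137). In *Bmal1ΔcDC* mice *Srsf5* had 394, 425 and 493 CPM at ZT3, 286, 289 and 299 at ZT9, 239.8, 244 and 270.1 at ZT15 and 324, 353 and 426 at ZT21, and in PBS mice 388, 409 and 509 CPM at ZT3, 345, 347 and 392 at ZT9, 255, 258 and 354 at ZT15 and 289.8, 332 and 353 at ZT21. ZT15 was thus the timepoint with the lowest mean in all 3 groups, and ZT3 the one with the highest mean in *Bmal1ΔcDC* and PBS. In these 2 groups the span was 0.79 and 0.60, with adjusted p-values of 0.262 and 0.645 (limma), so that no call was made there.

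*Hnrnpdl*, a relative of the mRNA decay factor *Hnrnpd* (AUF1), had 22.2, 22.5, 26.9, 33.4 and 48.6 CPM at ZT15 in WT mice, against 58.1, 59.9, 61.3, 70.5 and 74.8 CPM at ZT9, with no overlap. The means were 44.2 ± 11.9 CPM at ZT3 and 55.2 ± 9.63 CPM at ZT21 (SD, n = 5), and the span was 1.12 on the log2 scale (limma, adjusted p = 0.0172), the widest of the 20 hnRNP genes. In *Bmal1ΔcDC* mice its means ran from 40.6 CPM at ZT15 to 56.8 CPM at ZT21, and in PBS mice from 48.6 CPM at ZT21 to 58.2 CPM at ZT9 (n = 3 at each).

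*Hnrnph3*, of the family that binds runs of G, had 62.5, 68.6, 71.7, 72.8 and 81.7 CPM at ZT21 and 42.1, 43.6, 47.2, 48.6 and 54.6 CPM at ZT15 in WT mice, with no overlap (span 0.59, limma, adjusted p = 0.0195). *Rbm25*, which links the U1 snRNP to exonic elements, had 139.6, 145, 149, 153 and 157 CPM at ZT9 and 86.4, 97.1, 99.7, 102 and 156 CPM at ZT15, where 4 of the 5 mice were below the range of ZT9 and 1 mouse was within it (span 0.54, adjusted p = 0.0421). *Rbm48*, a factor of the minor spliceosome, had 19.9, 24.5, 25.2, 25.7 and 26.2 CPM at ZT9 and 14.3, 14.9, 14.97, 16.1 and 20.05 CPM at ZT15, with 1 mouse of each timepoint in the range of the other (span 0.59, adjusted p = 0.0318). At ZT3 the means of these 3 genes were 55.7, 112 and 19.3 CPM.

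*Rbm3* encodes a cold-inducible RNA-binding protein. In WT mice it had 199.96, 270.3, 278, 286 and 355 CPM at ZT3, 354, 371, 374, 382 and 413 at ZT9, 285, 286, 344, 376 and 378 at ZT15 and 243, 264, 265, 271 and 298 at ZT21, and the mice of ZT9 did not overlap those of ZT21 (span 0.50, limma, adjusted p = 0.0494). In *Bmal1ΔcDC* mice it had 372, 438 and 455 CPM at ZT9 and 227, 255 and 299.8 CPM at ZT21, and in PBS mice 399.5, 467 and 483 CPM at ZT9 and 307, 338 and 354 CPM at ZT21. ZT9 had the highest mean in all 3 groups and did not overlap ZT21 in any of them. The spans of 0.74 and 0.54 in *Bmal1ΔcDC* and PBS mice had adjusted p-values of 0.378 and 0.648 (limma). *Cirbp*, the other cold-inducible gene and not a member, was also highest at ZT9 in every group, with means of 184, 179 and 219 CPM in WT, *Bmal1ΔcDC* and PBS, and lowest at ZT15, with 78.5, 91.5 and 103 CPM (WT span 1.24, adjusted p = 0.00102). The summed level of 8 heat shock genes, most of it from *Hspa8* (mean 2007 CPM over all libraries, next *Hsp90aa1* with 298), moved the other way from *Cirbp*. It was lowest at ZT9 (means of 2134, 2187 and 2276 CPM in WT, *Bmal1ΔcDC* and PBS) and highest at ZT15 (3515, 3556 and 3389 CPM).

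**Figure D2:**
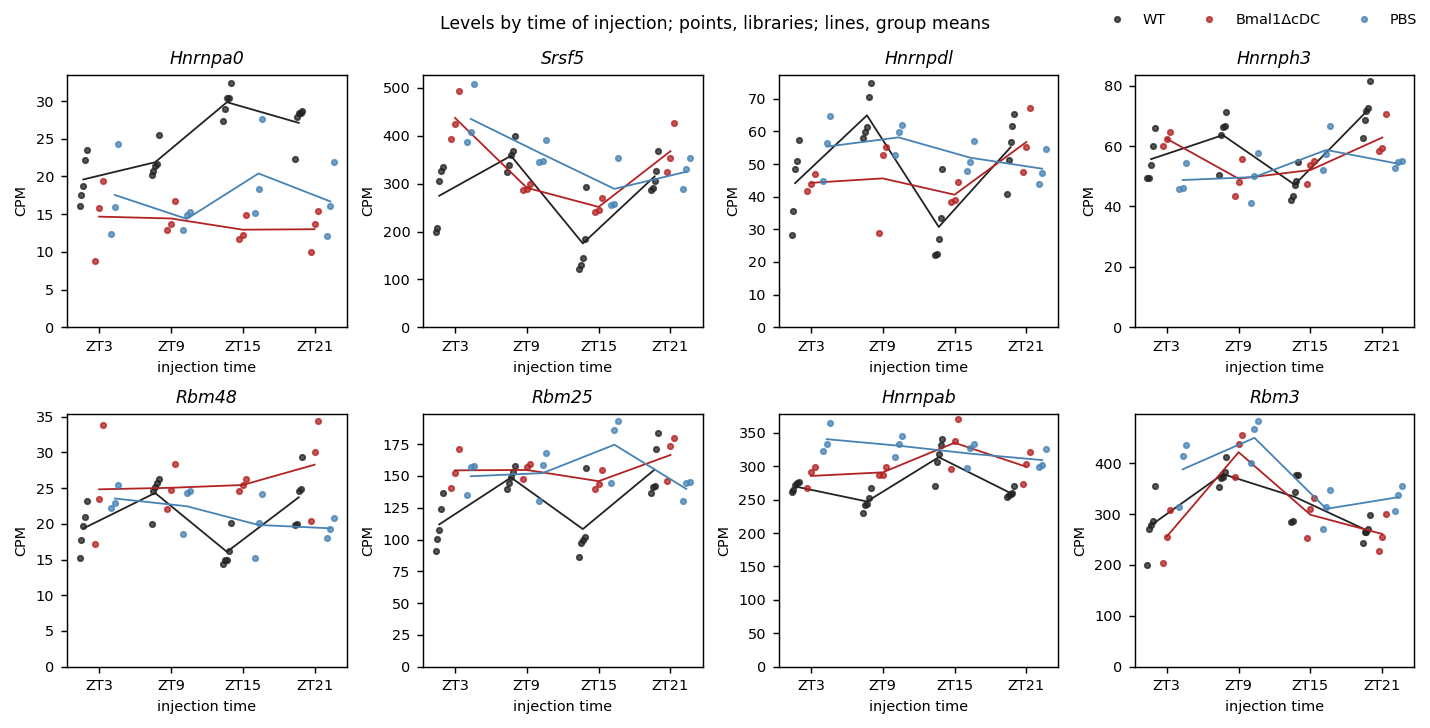
CPM of the 8 genes that differed between injection times in WT mice (y axis, linear from 0) at ZT3, ZT9, ZT15 and ZT21 (x axis) in WT (black, n = 5), *Bmal1ΔcDC* (red, n = 3) and PBS (blue, n = 3), with 1 point per library and lines through the means. *Hnrnpa0* rises to a mean of 29.9 CPM at ZT15 in WT, *Srsf5* is lowest at ZT15 and *Rbm3* highest at ZT9 in each of the 3 groups.

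Of these calls, *Hnrnpa0*, *Srsf5* and *Hnrnpdl* passed in each of the 20 fits that left out 1 WT library. *Hnrnph3* passed in 19 of them, failing without ZT15 replicate 4 (adjusted p = 0.0620, limma), *Rbm48* in 11, *Rbm25* in 5 and *Hnrnpab* and *Rbm3* in 3 each. Scaling by the median of ratios ended the calls of *Rbm48*, *Rbm25* and *Rbm3*, a pseudocount of 1 that of *Hnrnpab*, and a pseudocount of 0.1 or the inclusion of low genes that of *Rbm3*. With the replicate number as a block these 4 calls and that of *Hnrnph3* were lost. The count of 8 was 3 without ZT15 replicate 4 (against 2.67% of all genes) and 14 without ZT3 replicate 3 (against 11% of all genes), and 19 with libraries weighted by their quality (against 20.6% of all genes).

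In the libraries labelled *Bmal1ΔcDC* and in PBS, 12 libraries each, 0 members differed between timepoints after adjustment, against 0% of all genes in both (limma). At an unadjusted p under 0.05 there were 15 in *Bmal1ΔcDC* (23.1%, against 10.3% of all genes) and 6 in PBS (9.23%, against 7.44%). The smallest p in *Bmal1ΔcDC* were those of *Srsf5* (0.00191), *Rbm39* (0.00223) and *Srsf7* (0.00325, before adjustment, limma). *Rbm39*, a U2AF-related coactivator and splicing factor, had 223, 235 and 238 CPM at ZT9 and 343, 353 and 366 CPM at ZT21, and *Srsf7*, an SR protein that also acts in mRNA export, had 207, 239.8 and 243 CPM at ZT9 and 374, 375 and 390.3 CPM at ZT21. In both genes the ZT21 mice were above all others of the group. In PBS the smallest p were those of *Hnrnpul2* (0.00826), *Rbm15* (0.0102) and *Hnrnpr* (0.0319, before adjustment, limma). *Rbm15*, of the complex that methylates adenosines of mRNA, had 9.20, 10.2 and 11.3 CPM at ZT15, 3.01, 4.001 and 4.27 CPM at ZT3, 2.39, 3.81 and 7.70 CPM at ZT9 and 3.57, 5.16 and 6.45 CPM at ZT21. *Hnrnpul2*, a relative of the scaffold hnRNP U, had 26.1, 27.7 and 29.3 CPM at ZT9 and 37.9, 37.97 and 38.97 CPM at ZT15, without overlap. A larger number of libraries in WT gives that group more power, so the counts of the 3 groups cannot be read against each other.

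A 24-h cosine fitted to each gene gave 0 members at an adjusted p under 0.05 in each group, against 0.0251% of all genes in WT and 0% in *Bmal1ΔcDC* and PBS (limma). At an unadjusted p under 0.05 there were 6 members in WT (9.23%, against 9.20% of all genes), 14 in *Bmal1ΔcDC* (21.5%, against 10.5%) and 7 in PBS (10.8%, against 7.38%). The 14 became 8 (12.3%, against 9.50% of all genes) with scaling by the median of ratios and 9 without *Bmal1ΔcDC* ZT9 replicate 1 (against 8.37%) or ZT15 replicate 1 (against 8.87%), and the 6 in WT became 3 without ZT21 replicate 4 (against 8.36%). In WT the smallest p was that of *Hnrnpa0* (adjusted p = 0.0666, amplitude 0.34 on the log2 scale, acrophase 16.8 h), followed by *Rbm3* (adjusted p = 0.203, acrophase 10.9 h) and *Rbm38* (adjusted p = 0.269, acrophase 20.7 h). In *Bmal1ΔcDC* they were *Srsf5* (acrophase 1.51 h), *Rbm39* (19.1 h) and *Srsf7* (20.98 h), with adjusted p-values of 0.232, 0.232 and 0.248. In PBS they were *Hnrnpul2* (18.9 h), *Rbm15* (15.6 h) and *Srsf5* (3.98 h), each with an adjusted p of 0.663. *Srsf7*, *Rbm25* and *Hnrnph3* in WT have 2 high and 2 low timepoints that alternate, a shape that a single 24-h cosine cannot follow.

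That alternation was counted over all members. In WT, 30 of 65 (46.15%) had a mean log2 level at ZT9 and at ZT21 above both ZT3 and ZT15, against 31.88% of all genes, and 7 (10.77%) had the opposite shape, against 13.29%. In *Bmal1ΔcDC* the first shape was found in 9 members (13.85%, against 10.86% of genes) and the opposite in 7 (10.77%, against 16.65%). In PBS the first was found in 2 (3.077%, against 14.72%) and the opposite in 16 (24.62%, against 17.44%). The mean over all 65 genes in a library showed the first shape in WT, the reverse of the summed immediate early genes given above. It was 5.80 ± 0.063 at ZT9 and 5.82 ± 0.045 at ZT21 on the log2 scale, against 5.72 ± 0.18 at ZT3 and 5.64 ± 0.079 at ZT15 (SD, n = 5). The spread at ZT3 was wide, from 5.46 in replicate 3 to 5.89, and the library with the lowest mean over members also had the lowest mean over all genes tested (3.89). The next lowest in both was ZT15 replicate 5 (5.51 over members and 3.99 over all genes). The shape of the library mean therefore moves with the mean over all genes, and its part in the counts was not tested.

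**Figure D3:**
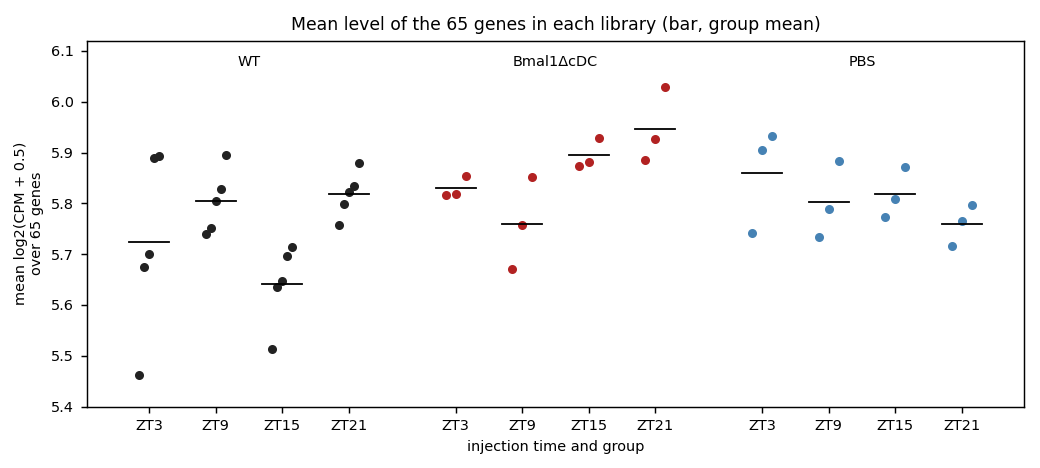
Mean log2(CPM + 0.5) over the 65 genes (y axis, not from 0) in each of the 44 libraries (points), by injection time and group (x axis), with a bar at each group mean. WT libraries run from 5.46 at ZT3 to 5.90 at ZT9, and the 5 mice of ZT3 spread wider than any other group.

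ZT9 in the light phase and ZT21 in the dark phase, the pair that the study set against each other, were compared directly in WT mice. No member differed at an adjusted p under 0.05 (0 of 65, against 0.226% of all genes, limma). Over all genes, 0.092% passed with ZT9 above ZT21, 0.134% with ZT9 below it and 0.0669% with a change of 2-fold or more, and for each of these the members numbered 0. Of the members, 7 (10.8%) had an unadjusted p under 0.05, against 11.5% of all genes. The first 3 were *Rbm38*, *Rbm3* and *Hnrnpd*. *Rbm38*, a p53 target that acts on mRNA stability, had 7.59, 8.98, 9.84, 12.2 and 15.5 CPM at ZT9 and 14.6, 16.5, 16.8, 18.1 and 19.5 CPM at ZT21 (difference −0.67 ± 0.17, ZT9 minus ZT21 on the log2 scale ± SE, adjusted p = 0.108). *Rbm3* was higher at ZT9 by 0.50 ± 0.13 (adjusted p = 0.122) and *Hnrnpd* by 0.30 ± 0.099 (adjusted p = 0.257). *Hnrnpd* had 103, 113, 114, 123 and 131 CPM at ZT9 and 89.9, 93.9, 94.1, 95.1 and 99.8 CPM at ZT21, without overlap. The median difference over members was −0.016, against 0.040 over all genes. The T cell list was lower at ZT9 than at ZT21, with sums of 753 ± 75.9 and 969 ± 101 CPM (SD, n = 5) and a median difference of −0.61 over 15 genes, 1 of them above 0, and its part in this comparison was not tested. Without ZT9 replicate 1 the call was made for *Rbm38* alone (1 of 65 members, against 0.234% of all genes in that fit). With all libraries, an intensity trend gave 1 member (against 0.41% of all genes) and array weights 3 (against 3.95%).

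The effect of the genotype was examined by comparing the libraries labelled *Bmal1ΔcDC* with WT, averaged over the 4 timepoints. Of the 65 genes, 32 (49.2%) differed at an adjusted p under 0.05, against 33.7% of all genes (limma), and 37 (56.9%) had an unadjusted p under 0.05, against 43% of all genes. Of the 32, 27 (41.5%) were higher in *Bmal1ΔcDC*, against 23.5% of all genes, and 5 (7.69%) were lower, against 10.2%. With scaling by the median of ratios in place of the library size, 16 members (24.6%) were higher and 8 (12.3%) lower, against 14.6% and 14.7% of all genes. No member changed by 2-fold or more, which 3.59% of all genes did. The median difference over members was 0.15 on the log2 scale, against 0.098 over all genes. With scaling by the median of ratios it was 0.061, against 0.011. As given above, depth, immediate early genes, cell cycle genes and NK cell genes differ between these groups too, and fewer cells of a type and less RNA per cell cannot be told apart in sorted bulk samples.

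*Hnrnpa0* was the member with the smallest p, and was lower in *Bmal1ΔcDC*. It ranged from 8.73 to 19.5 CPM (median 13.7) in 12 *Bmal1ΔcDC* libraries and from 16.1 to 32.3 CPM (median 24.5) in 20 WT libraries, a difference of −0.82 ± 0.089 (log2, SE, limma, adjusted p = 7.69e-08). The ranges overlapped only through WT mice at ZT3, since the highest *Bmal1ΔcDC* value was below every WT value at ZT9, ZT15 and ZT21. *Hnrnpul1*, a relative of hnRNP U (−0.34 ± 0.084, adjusted p = 0.00295), *Hnrnpl*, which binds CA repeats (−0.16 ± 0.049, adjusted p = 0.0109), *Rbm47*, a cofactor of C-to-U RNA editing (−0.37 ± 0.11, adjusted p = 0.0102), and *Rbm45* (−0.61 ± 0.22, adjusted p = 0.0297) were the other 4 genes that were lower. All 5 were also lower with scaling by the median of ratios. These 4 are named as the whole of a short list, after their values were seen. *Hnrnpul1* (chr7:25721161-25756268) and *Hnrnpl* (chr7:28808546-28822268) lie on chromosome 7, the chromosome of the floxed gene *Arntl* (chr7:113178471-113314126), as does *Rbm42* (chr7:30640995-30650228), which differed by 0.07 ± 0.042 (adjusted p = 0.201). *Hnrnpul1* and *Hnrnpl* were also higher in the same WT libraries than in PBS, which shares the control genotype. With scaling by the median of ratios these differences were 0.37 and 0.24 (limma, adjusted p = 3.97e-04 and 4.19e-04). A part of the position on the chromosome was not tested.

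Among the hnRNP genes, 9 of 20 were higher and 3 lower in *Bmal1ΔcDC* (23.5% and 10.2% of all genes), and 7 and 4 with scaling by the median of ratios (14.6% and 14.7% of all genes). *Hnrnpk* ranged from 903 to 1144 CPM (median 956) in *Bmal1ΔcDC* and from 714 to 907 CPM (median 804) in WT, and the ranges met only at their ends (difference 0.30 ± 0.045, adjusted p = 9.71e-06). *Hnrnpll*, known for its control of CD45 splicing in lymphocytes, ranged from 45.9 to 66.1 CPM (median 55.8) against 23.02 to 47.8 CPM (median 38.7) (0.56 ± 0.091, adjusted p = 3.09e-05). It had the largest difference upwards of the 65 genes. *Hnrnph2* (0.40 ± 0.072, adjusted p = 9.87e-05) and *Hnrnpf* (0.23 ± 0.055, adjusted p = 0.00175), both binders of G runs, were higher as well.

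Of the 11 SR genes, 7 were higher and 0 lower, read against the same 23.5% and 10.2%, and 3 (*Srsf3*, *Srsf6* and *Srsf10*) and 0 with scaling by the median of ratios, against 14.6% and 14.7%. *Srsf6* ranged from 94.99 to 138 CPM (median 127) in *Bmal1ΔcDC* and from 75.6 to 113 CPM (median 91.7) in WT (0.42 ± 0.064, limma, adjusted p = 1.38e-05). The others were *Srsf2*, *Srsf3*, *Srsf5*, *Srsf7*, *Srsf9* and *Srsf10*, with differences from 0.18 (*Srsf9*) to 0.31 (*Srsf10*) on the log2 scale. The median over the 11 genes was 0.24.

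Of the 34 RBM genes, 11 were higher and 2 lower (23.5% and 10.2% of all genes), and 6 and 4 with scaling by the median of ratios (14.6% and 14.7%). *Rbm34* ranged from 32.4 to 44.8 CPM (median 36.8) in *Bmal1ΔcDC* and from 22.3 to 33.6 CPM (median 28.4) in WT (0.42 ± 0.062, limma, adjusted p = 7.47e-06). *Rbm8a* encodes Y14, a core protein of the exon junction complex, and ranged from 129 to 179 CPM (median 149) against 100.4 to 147 CPM (median 119) (0.33 ± 0.053, adjusted p = 2.56e-05). Higher levels were also found for *Rbm22*, a part of the catalytic spliceosome (0.33 ± 0.065, adjusted p = 2.71e-04), for *Rbm17*, which acts at 3′ splice sites (0.19 ± 0.046, adjusted p = 0.00260), for *Rbm39* (0.35 ± 0.087, adjusted p = 0.00270) and for *Rbm18* (0.56 ± 0.12, adjusted p = 5.15e-04). The call for *Rbm17* was lost with scaling by the median of ratios (adjusted p = 0.199, limma). *Rbm3* differed by −0.043 ± 0.077 (adjusted p = 0.700).

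**Figure D4:**
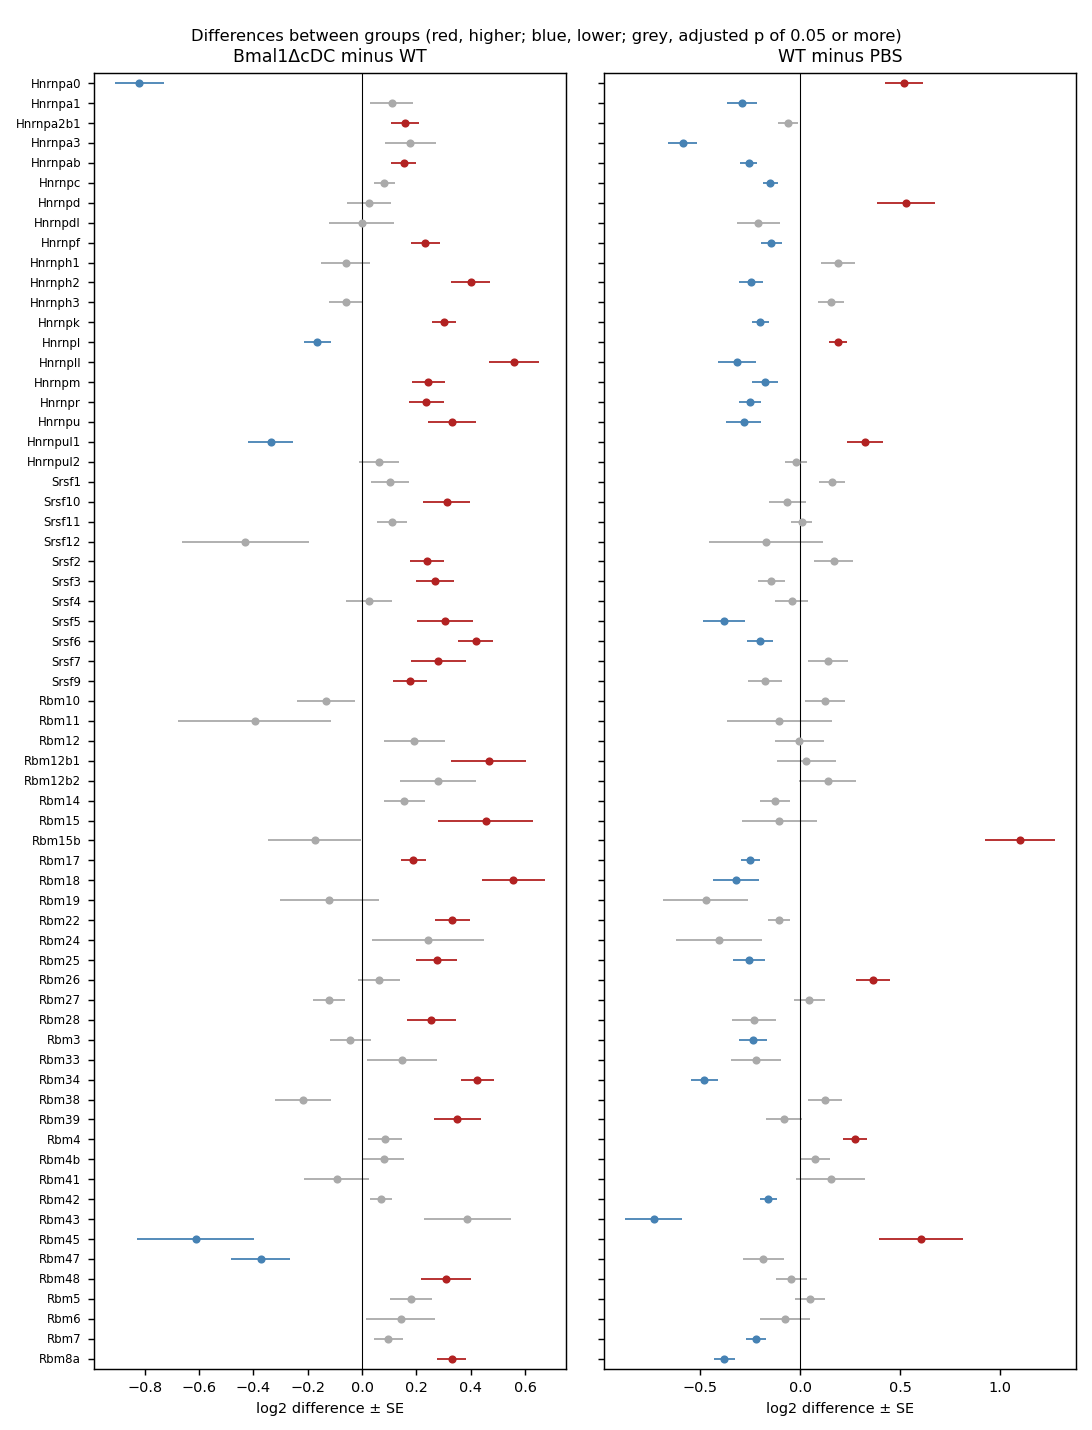
Difference on the log2 scale ± SE (x axis) of each of the 65 genes (y axis, by family) between *Bmal1ΔcDC* and WT (left) and between WT and PBS (right), averaged over the 4 timepoints, with red for an adjusted p under 0.05 and higher, blue for lower and grey for the rest. On the left 27 genes are red and 5 blue, and on the right 8 are red and 22 blue. The 2 panels share the WT libraries.

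The effect of the tumour cells was examined by comparing WT with PBS, averaged over the 4 timepoints. Of the 65 genes, 30 (46.2%) differed at an adjusted p under 0.05, against 37.9% of all genes (limma), and 36 (55.4%) had an unadjusted p under 0.05, against 45.8% of all genes. Of the 30, 8 (12.3%) were higher in WT, against 13.3% of all genes, and 22 (33.8%) were lower, against 24.6%. With scaling by the median of ratios 11 members (16.9%) were higher and 17 (26.2%) lower, against 17.4% and 20.3% of all genes. The median difference over members was −0.11 on the log2 scale, against −0.040 over all genes. With scaling by the median of ratios it was −0.075, against 0.0058. This comparison and the previous one use the same 20 WT libraries, so a gene that stands apart in WT differs in both, and no overlap between them is given.

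Lower in WT were 11 of the 20 hnRNP genes and higher 4 (24.6% and 13.3% of all genes), and 8 and 6 with scaling by the median of ratios (20.3% and 17.4% of all genes). *Hnrnpa3*, an A/B-type hnRNP, had the smallest p. It ranged from 34.6 to 53.004 CPM (median 44.2) in WT and from 50.6 to 92.01 CPM (median 63.6) in PBS, where 3 mice at ZT15 had 70.5, 82.5 and 92.01 CPM (difference −0.59 ± 0.074, limma, adjusted p = 4.11e-07). *Hnrnpab* (−0.26 ± 0.041, adjusted p = 1.46e-05), *Hnrnpk* (−0.20 ± 0.042, adjusted p = 4.76e-04) and *Hnrnpr* (−0.25 ± 0.055, adjusted p = 6.83e-04) were also lower. *Hnrnpa0* was higher in WT, from 16.1 to 32.3 CPM (median 24.5) against 12.1 to 27.6 CPM (median 15.6) (0.52 ± 0.094, adjusted p = 7.76e-05). In this gene the WT libraries were thus on average above both other groups, each compared with the same WT libraries.

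Of the SR genes, 2 of 11 were lower in WT and 0 higher, against the same 24.6% and 13.3%, and 2 and 1 (*Srsf1*) with scaling by the median of ratios, against 20.3% and 17.4%. The 2 were *Srsf5* (−0.38 ± 0.10, limma, adjusted p = 0.00499) and *Srsf6* (−0.20 ± 0.066, adjusted p = 0.0166), named as the whole of a short list.

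Of the RBM genes, 9 of 34 were lower in WT and 4 higher (24.6% and 13.3% of all genes), and 7 and 4 with scaling by the median of ratios (20.3% and 17.4%). *Rbm34* ranged from 22.3 to 33.6 CPM (median 28.4) in WT and from 29.4 to 49.7 CPM (median 40.1) in PBS (−0.48 ± 0.066, limma, adjusted p = 1.89e-06), and *Rbm8a* from 100.4 to 147 CPM (median 119) and from 136 to 207 CPM (median 156) (−0.38 ± 0.053, adjusted p = 1.96e-06). *Rbm17* (−0.25 ± 0.048, adjusted p = 1.52e-04), *Rbm43* (−0.73 ± 0.14, adjusted p = 1.82e-04) and *Rbm7*, a part of the nuclear exosome targeting complex (−0.22 ± 0.05, adjusted p = 9.90e-04), were lower too. *Rbm15b*, a relative of *Rbm15* in the adenosine methylation complex, was the only member that differed by 2-fold or more, against 6.24% of all genes. It ranged from 11.6 to 26.1 CPM (median 17.7) in WT and from 3.51 to 16.5 CPM (median 8.05) in PBS (1.10 ± 0.18, adjusted p = 1.45e-05). *Rbm4*, a regulator of exon choice, was higher in WT by 0.27 ± 0.062 (adjusted p = 9.47e-04).

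**Figure D5:**
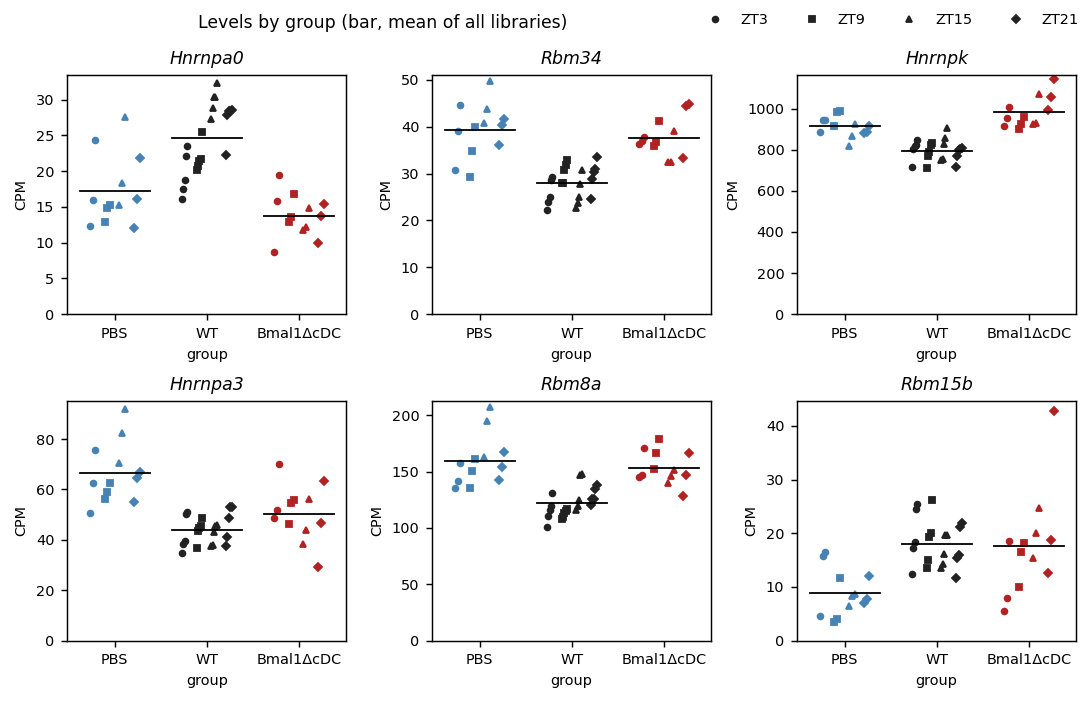
CPM (y axis, linear from 0) of 6 genes with small p in the group comparisons, in the 12 PBS (blue), 20 WT (black) and 12 *Bmal1ΔcDC* (red) libraries (x axis), with symbols for the injection time and bars at the mean of all libraries of a group. *Hnrnpa0* lies above both other groups in WT, with a median of 24.5 CPM against 13.7 in *Bmal1ΔcDC* and 15.6 in PBS.

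Whether the course over time differed between groups was tested with interaction terms. No member passed the adjusted threshold in the interaction of genotype with time (0 of 65, against 0.0502% of all genes, limma), and 13 (20%) had an unadjusted p under 0.05, against 18.3% of all genes. *Rbm26*, a factor of nuclear RNA decay, came first (adjusted p = 0.0735). It had 32.9, 33.03, 42.4, 42.6 and 42.7 CPM at ZT9 and 21.5, 23.2, 28.5, 29.3 and 32.7 CPM at ZT15 in WT, and 23.6, 30.6 and 31.9 CPM at ZT9 and 39.96, 41.2 and 47.04 CPM at ZT15 in *Bmal1ΔcDC*. The 5 WT mice at ZT9 were all above the 5 at ZT15, and the 3 *Bmal1ΔcDC* mice at ZT9 all below the 3 at ZT15. *Rbm5*, which splices apoptosis genes, followed (adjusted p = 0.129), with means of 127 and 98.6 CPM at ZT9 and ZT15 in WT, and of 103 and 148 CPM in *Bmal1ΔcDC*. *Srsf5* came next (adjusted p = 0.158), with the values given above. Without ZT3 replicate 3 of the WT mice both *Rbm26* and *Rbm5* passed (2 of 65 members, against 2.6% of all genes in that fit).

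No member passed in the interaction of treatment with time (0 of 65, against 0% of all genes, limma), and 17 (26.2%) had an unadjusted p under 0.05, against 11.9% of all genes. *Hnrnph3* and *Rbm25* (both adjusted p = 0.178) and *Hnrnph1* (adjusted p = 0.194) came first. *Rbm25* at ZT15 had 144, 186 and 194 CPM in PBS against 86.4, 97.1, 99.7, 102 and 156 CPM in WT, and *Hnrnph1* at ZT21 67.5, 72.2 and 72.3 CPM in PBS against 109, 110.1, 110.3, 115 and 115 CPM in WT, without overlap. Without ZT15 replicate 2 of the WT mice *Rbm25* passed (adjusted p = 0.0388, limma), 1 of 65 members, against 0.318% of all genes in that fit.

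The rest of the splicing machinery was followed through 3 lists. Of 40 genes of the core snRNPs, 1 differed between timepoints in WT, of 8 kinases of SR proteins 3, and of 41 other RNA-binding splicing regulators 5 (limma, adjusted over all genes, against 5.28% of all genes). The snRNP gene was *Snrnp70*, of the U1 particle (adjusted p = 0.00822), with means of 87.5 and 87.1 CPM at ZT9 and ZT21 and of 65.7 and 61.3 CPM at ZT3 and ZT15, the alternation seen in the members. *Sf3b1*, of the U2 particle, had an adjusted p of 0.0887. The kinases were *Clk1*, *Clk2* and *Clk4*. *Clk1* had 159, 167, 179, 191 and 224 CPM at ZT9 and 53.2, 61.7, 64.5, 83.9 and 158 CPM at ZT15 (span 1.24, adjusted p = 0.0427), and *Clk4* a span of 1.18 (adjusted p = 0.0400). The call of *Clk1* held in 4 and that of *Clk4* in 6 of the 20 fits that left out 1 library, and both were lost without moderation of the variances and with the replicate block, that of *Clk1* also with low genes included. Of the other regulators, *Cirbp*, described above, had the smallest p.

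Between *Bmal1ΔcDC* and WT, 16 of the 40 snRNP genes were higher and 2 lower, of the kinases 1 was higher and 1 lower, and of the 41 other regulators 11 were higher and 9 lower, against 23.5% higher and 10.2% lower of all genes (limma). With scaling by the median of ratios, 9 snRNP genes were higher and 5 lower, and the other regulators turned to 4 higher and 12 lower, against 14.6% and 14.7% of all genes. *U2af2*, which binds the polypyrimidine tract, was lower (−0.59 ± 0.058, adjusted p = 1.49e-08) and *Sf3b4* higher (0.51 ± 0.051, adjusted p = 2.33e-08). *Dyrk1a* was lower (−0.64 ± 0.13) and *Clk4* higher (0.54 ± 0.14), and *Qk* (−1.02 ± 0.12) and *Acin1* (−0.45 ± 0.072) were lower. Between WT and PBS, 3 snRNP genes were higher and 17 lower, 1 kinase was higher and 1 lower, and 7 other regulators were higher and 11 lower, against 13.3% higher and 24.6% lower of all genes. With scaling by the median of ratios, 4 snRNP genes were higher and 10 lower, and the other regulators turned to 13 higher and 7 lower, against 17.4% and 20.3% of all genes. *Sf3b4* was lower in WT (−0.45 ± 0.058) and *U2af2* higher (0.45 ± 0.063), *Dyrk1a* was higher (0.76 ± 0.087) and *Srpk2* lower (−0.44 ± 0.12, a call that was lost with the replicate number as a block), and *Cirbp* was lower (−0.55 ± 0.084).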

How the data were processed

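RNA was sequenced in 44 libraries, 1 mouse each. The study gives 2 independent experiments for the WT and *Bmal1ΔcDC* mice. The sample labels do not assign the mice to them, so their part was not tested. Per the study's methods, single reads of 50 bases were placed on mm10 by STAR and tallied per gene by HTSeq (0.9.1). The authors then used edgeR for library-size scaling, and the deposited values are CPM in 1 table. No column lacked a sample. From 87.4% to 89.3% of the values above 0 in a library were whole reads (within 0.01), which gives the depth, and the rest were fractions, so no count test was run. From this table, log2(CPM + 0.5) was fitted with limma (3.58.1, R 4.3.3). Variances were moderated by empirical Bayes, and p-values were adjusted by the Benjamini-Hochberg method over the 11963 genes that reached 1 CPM in 5 or more libraries. The fit was tested on simulated data. Groups come from the sample labels. Time was tested within each group, genotype and treatment averaged over timepoints with equal weight, and their interactions with time on 32 libraries. Fold changes are on the log2(CPM + 0.5) scale, which understates changes of low genes. Coordinates and transcript lengths are those of GRCm38, and promoters come from RefSeq (GRCm38.p6). Replicates are separate mice. No 2 libraries were identical. Named genes are the 3 members with the smallest p of each test, those that passed (the first 12 where more did), the 2 highest members per kb of each family, *Rbm3*, *Cirbp*, *Arntl* and the first 2 genes of each pathway list in the test of time in WT and in both averaged comparisons. Of these, 1 gene is not reported here. A few others are named as chosen after their values were seen. The members and gene lists were chosen with earlier results of these data known. Alternatives were median-of-ratios scaling, a pseudocount of 1 or 0.1, no filter on low genes, a filter at a mean of 10 CPM, least squares without moderation, an intensity trend, array weights, a block for the replicate number and leaving out each library.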

Additional observations from a re-analysis of the deposited data

Results flagged for a closer look

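Within the WT groups of 5 mice, the gap between the highest or lowest mouse and its neighbour was wide for the group's range (Dixon's 95% critical value) in 8 of 196 groups of 5 values examined for the named genes and the mean over members (4.08%), where chance gives about 1 in 20. *Rbm25* at ZT15 had 1 mouse at 156 CPM, the others lying between 86.4 and 102 CPM. *Qk* at ZT9 had 1 mouse at 139.7 CPM, above 51.9 to 71.3 CPM. *Hnrnpa0* had a high mouse at ZT9 (25.5 CPM, above 20.2 to 21.7) and a low mouse at ZT21 (22.3 CPM, below 27.8 to 28.6). *Hnrnpf* at ZT21 had 809 CPM in 1 mouse, above 741 to 747, and *Rbm39* at ZT9 had 277 CPM in 1 mouse, above 217 to 233. *Rbm48* at ZT9 had 19.9 CPM in 1 mouse, below 24.5 to 26.2, and *Sf3b4* at ZT3 had 104 CPM in 1 mouse, above 79.1 to 84.7.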

How the results depend on the processing

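Of 74 results for single genes, 60 kept their side of the threshold under every setting other than leaving out a library, 62 when each library was left out. Of the 39 that have a direction, 0 reversed under these settings or without a library. Shares in brackets are those of all genes in the same fit. In the test of time in WT the count of 8 members (5.28%) became 15 with genes of a mean of at least 10 CPM (11.2%), 15 with an intensity trend (7.82%), 19 with array weights (20.6%) and 3 to 14 when a library was left out (2.32% to 11%). The cause was not tested. In *Bmal1ΔcDC* and PBS it stayed at 0 under each setting, with array weights that stopped before convergence in *Bmal1ΔcDC*. At an unadjusted p under 0.05, the 24-h cosine in WT gave 6 members (9.20%), 10 with array weights (22.4%) and 3 to 7 when a library was left out (7.36% to 19.6%). That in *Bmal1ΔcDC* gave 14 (10.5%), 8 with median-of-ratios scaling (9.50%), 18 with low genes included (10.1%) and 9 to 14 when a library was left out (8.37% to 12.9%). ZT9 against ZT21 gave 0 (0.226%), 1 with an intensity trend (0.410%), 3 with array weights (3.95%) and 0 to 1 when a library was left out (0.0251% to 0.560%). The interaction of genotype with time gave 0 (0.0502%), 1 with a mean of at least 10 CPM (0.669%), 6 with array weights (8.95%) and 0 to 2 when a library was left out (0.0334% to 2.60%), and that of treatment with time 0 to 1 (0% to 0.318%). When a library was left out, genotype gave 28 to 34 members (30.9% to 34.1%) and treatment 26 to 33 (34.4% to 40.5%). The replicate block gave 4 members for time in WT (2.85%) and 3 for the cosine in WT (7.91%). The deviations of same-numbered mice had a mean correlation of −0.015 in WT, −0.001 in *Bmal1ΔcDC* and −0.029 in PBS. Single pairs in WT ran from −0.237 to 0.163. The labels do not say whether the numbers pair the mice, and a mean correlation cannot settle it.

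With 3 mice per timepoint in *Bmal1ΔcDC* and PBS, a difference that was not called is not shown to be absent. Fractions of reads in 17 members leave their levels uncertain. Median-of-ratios scaling moved the median of all genes by less than 0.1. For genotype the move was −0.087, from 0.098 to 0.011, which is most of that median. Depth, immediate early genes and group move together.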
